A study of Mus musculus with 8 samples.

Results

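The enzymes described here make serine, asparagine, glutamine and proline, or feed and drain these routes. They are the 9 genes Phgdh, Psat1 and Psph (serine), Asns and Glul (asparagine and glutamine), and Aldh18a1, Pycr1, Oat and Prodh (proline and ornithine), taken by name out of the 55471 genes with a count row. RNA was sequenced from pieces of heart of 4 wild-type (WT) mice and 4 TAZG197V mice, 1 library per mouse. TAZG197V mice carry in every cell a CRISPR/Cas9 knock-in of a Barth syndrome patient mutation in Taz, the X-linked gene of Tafazzin, which remodels cardiolipin in the mitochondrial inner membrane. The line was made in C57BL/6N zygotes and its founders were crossed to C57BL6/J, neither group was treated, and per the study the mice were 14 weeks old and the mutants were hemizygous males, although the labels speak of homozygous offspring. How many founders gave rise to the line and which mice were littermates are not given in the sources used here, so that p-values measure the spread between these 8 mice. Total counts ran from 23055689 to 36301031 per library.

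Serine is built from the glycolytic intermediate 3-phosphoglycerate, in steps taken in turn by Phgdh, Psat1 and Psph. Asparagine is formed by Asns from aspartate with the amide nitrogen of glutamine, and glutamine is formed by Glul from glutamate and ammonia. Proline is made from glutamate, largely in mitochondria, by Aldh18a1 and then reductases such as Pycr1, Oat joins the same pathway from ornithine, and Prodh starts the breakdown of proline. Mammalian cells are known to induce several of these genes together when amino acids run short or when mitochondria are stressed, through the transcription factor ATF4. ATF4 binds, with C/EBP partners, to composite sites whose core is often written TGATGNAA.

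Promoter sequences of these genes are shown because several of them moved together by large factors (below). Each run starts 250 bases before a RefSeq transcript start on GRCm38.p6 and ends 50 bases after it, and is read 5′ to 3′ on the strand of the gene, with any match to TGATGNAA in capitals. Aldh18a1 is set beside the others as a gene with a large rise and no match in its window.
Asns, chr6:7693160-7693459, minus strand: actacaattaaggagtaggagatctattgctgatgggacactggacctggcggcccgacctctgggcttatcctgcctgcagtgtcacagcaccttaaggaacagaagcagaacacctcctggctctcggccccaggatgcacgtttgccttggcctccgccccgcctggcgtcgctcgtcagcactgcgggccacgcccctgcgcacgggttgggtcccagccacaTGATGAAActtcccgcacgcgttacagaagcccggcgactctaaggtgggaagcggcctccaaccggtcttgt
Pycr1, chr11:120643699-120643998, minus strand: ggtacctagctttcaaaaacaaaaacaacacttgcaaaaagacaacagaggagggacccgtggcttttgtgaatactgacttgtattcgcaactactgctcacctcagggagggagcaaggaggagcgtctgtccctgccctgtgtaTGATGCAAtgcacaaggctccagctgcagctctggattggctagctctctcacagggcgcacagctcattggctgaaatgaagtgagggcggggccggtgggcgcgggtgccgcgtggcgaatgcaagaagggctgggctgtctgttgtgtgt
Aldh18a1, chr19:40588414-40588713, minus strand: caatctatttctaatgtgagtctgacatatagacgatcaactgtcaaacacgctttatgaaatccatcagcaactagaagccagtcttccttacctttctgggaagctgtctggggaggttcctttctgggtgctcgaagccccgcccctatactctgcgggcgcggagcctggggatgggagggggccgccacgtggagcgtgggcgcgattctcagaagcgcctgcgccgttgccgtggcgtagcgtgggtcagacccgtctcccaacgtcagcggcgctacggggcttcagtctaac
In the Asns window the match reads TGATGAAA and begins at -23 from the start. In the Pycr1 window it reads TGATGCAA and begins at -103. All 9 genes had a window in the RefSeq table, Psat1 having 2, and these were the only matches on either strand, so that 2 of 9 genes held the motif. Of all 27025 genes with such a window 4.51% held it, and of all 32851 windows 3.97%. Several of the 9 genes were already known to be induced through ATF4, so setting 2 of 9 beside 4.51% is no test of enrichment. A match of letters is not evidence of binding, which was not measured here, and windows without a match say nothing of sites outside them.

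All 9 enzymes passed the low-count filter and were tested, together with 15084 genes in all. A gene was called when its adjusted p in the quasi-likelihood F-test of edgeR was under 0.05, the higher level exceeded the lower by over 15% and its mean scaled count was at least 50. Of all genes tested 33.5% were called, 18.5% as higher and 15.1% as lower in TAZG197V hearts. All 9 enzymes were called, 7 as higher and 2 as lower, although the call of Prodh did not hold in most other fits (below). The median log2 fold change of the 9 was 3.67, against -0.01 over all genes tested. The values of the 2 genotypes did not overlap for 8 of the 9, the exception being Prodh, while 33.2% of all genes tested had no overlap. With the fold change required to be at least 1.5, 6 of the 9 were called, against 12.2% of genes tested. Counted from the largest rise of the 15084 genes, Asns stood at place 17, Phgdh at 21, Psat1 at 37, Pycr1 at 38, Aldh18a1 at 54, Psph at 281 and Glul at 1798. The falls were of a different order, with Oat at place 3782 and Prodh at 4093 counted from the largest fall.

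**Figure D1:**
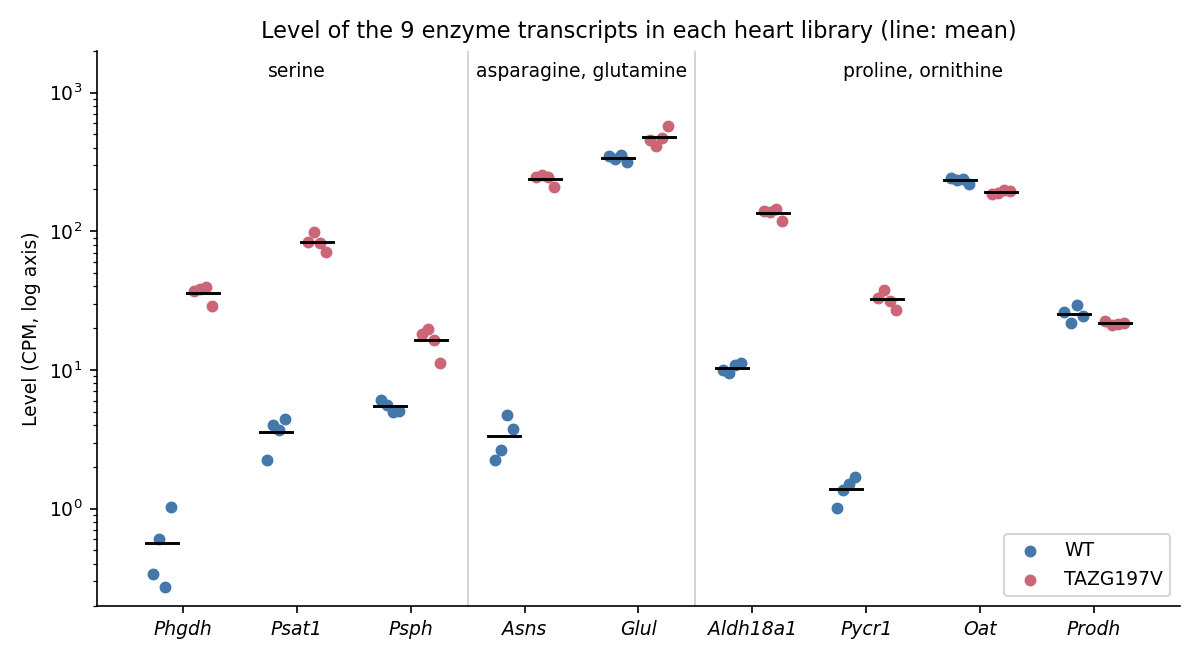
Level of each of the 9 transcripts in each heart library, in counts scaled to library size (CPM) on a log axis. Points are libraries 1 to 4 of each genotype from left to right (WT blue, TAZG197V red) and black lines are means of 4 libraries. Phgdh, Psat1, Psph, Asns, Aldh18a1 and Pycr1 were separated by wide gaps, Glul and Oat by narrow gaps, and Prodh overlapped.

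The groups were checked on the edited gene and on markers of heart. Taz (chrX:74281912-74290151, mm10) lay at 60.9 ± 2.36 CPM (counts scaled to the library size) in WT and 47.3 ± 2.6 CPM in TAZG197V hearts (SD, n = 4 each), a log2 fold change of -0.37 (SE 0.0551, edgeR adjusted p = 0.00124), and a point mutation does not itself remove the transcript. The summed level of 7 cardiomyocyte markers was 55900 to 62800 CPM in WT and 46500 to 50700 CPM in TAZG197V libraries, with 4 of the 7 called as lower, and a smaller share of cardiomyocytes cannot be told apart from less marker RNA per cell. Of the fibroblast markers (summed level 1150 to 1860 CPM in WT and 795 to 1150 CPM in TAZG197V) 4 of 7 were called lower, of the endothelial markers (798 to 1100 and 662 to 830 CPM) 2 of 7, and of the macrophage markers (191 to 221 and 176 to 283 CPM) 0 of 7. Markers of liver and skeletal muscle summed to at most 12 and 2.64 CPM in any library. The 2 libraries numbered 4 stood apart. Their summed neuron markers were 101 CPM in WT 4 and 260 CPM in TAZG197V 4 against 8.68 to 13.4 CPM in the other 6, and their summed astrocyte markers were 88 and 146 CPM against 19.6 to 27.3 CPM. Red cell markers summed to 55100 CPM in WT 4, 346 to 1070 CPM in WT 1 to 3 and 227 to 571 CPM in TAZG197V, and 6 of 6 were called lower. Of the tested neuron markers 0 of 5 were called, and of the tested astrocyte markers 1 of 5 was called higher and 1 lower. In a principal component analysis the first component (47.1% of the variance) separated the genotypes and the second (25.4%) the libraries numbered 4. Without both of these libraries, Taz was at -0.35. All 9 enzymes were still called without them, and the log2 fold changes of that fit are given with each enzyme.

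Transcripts of all 3 serine synthesis enzymes rose, and the largest fitted factor was that of Phgdh, which commits 3-phosphoglycerate to the route. Phgdh (ENSMUSG00000053398, chr3:98313170-98339990, mm10), the dehydrogenase of this step, was measured at 0.338, 0.605, 0.272 and 1.03 CPM in WT 1 to 4. In TAZG197V 1 to 4 it was measured at 36.8, 38.3, 39.8 and 29 CPM. Every mutant heart was thus far above every WT heart, with the library numbered 4 as the highest among WT and the lowest among TAZG197V. The fitted rise was 62.3-fold (log2 fold change 5.96, SE 0.262, edgeR adjusted p = 2.82e-06). In WT hearts the level rested on 7 to 23 reads per library, so the size of the fold is less sure than its direction. Leaving out each library in turn gave log2 fold changes from 5.71 to 6.42, and leaving out both libraries numbered 4, whose neuron and astrocyte markers were high, gave 6.56. The part of these markers in the WT 4 value was not tested.

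Phgdh has many near-copies in the mouse genome, and 47.8% of the 50-base windows of its exons were also found in other genes, 23 in all and most of them processed pseudogenes. Reads of 50 bases from such stretches may be left uncounted or be assigned to a copy, and how such reads were treated is not given in the sources used here. The counts of these 23 genes summed to 0 to 2 reads in each WT library and 16 to 19 reads in each TAZG197V library, against 791 to 1419 reads of Phgdh itself in TAZG197V. The copy that shares most with it, Gm7901, had 0 reads in each WT library and 10 to 16 in each TAZG197V library. The level of Phgdh is uncertain for this reason, and its rank against other genes is given with that limit.

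Psat1 (ENSMUSG00000024640, chr19:15904678-15947337), which transfers the amino group of glutamate to form phosphoserine, was at 2.23, 4.01, 3.69 and 4.42 CPM in WT 1 to 4. Levels of Psat1 in TAZG197V 1 to 4 were 84.2, 98, 82.5 and 71.3 CPM. The rise was 23.3-fold (log2 fold change 4.54, SE 0.201, edgeR adjusted p = 2.86e-06), with wide separation of the genotypes, and the log2 value was 4.73 without both libraries numbered 4. Psph (ENSMUSG00000029446, chr5:129765558-129787449) releases serine from phosphoserine. Its levels were 6.09, 5.63, 5.01 and 5.09 CPM in WT and 18.2, 19.6, 16.5 and 11.3 CPM in TAZG197V 1 to 4. The rise of Psph was 2.95-fold (log2 fold change 1.56, SE 0.121, edgeR adjusted p = 5.49e-05), the smallest of the 3 steps, with a log2 value of 1.69 without both libraries numbered 4. TAZG197V 4 was the lowest mutant heart for each of the 3 genes. The exons of Psph share 10.4% of their bases with Cct6a on the opposite strand, and whether the counting used strand is not given in the sources used here.

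The order of the 3 serine enzymes by level per length differed between the genotypes. In WT hearts Psph led with 1.26 ± 0.117 CPM per kilobase of exon, followed by Psat1 with 0.843 ± 0.224 and Phgdh with 0.226 ± 0.138 (SD, n = 4). In TAZG197V hearts Psat1 led with 19.7 ± 2.57 CPM per kilobase, followed by Phgdh with 14.5 ± 1.93 and Psph with 3.79 ± 0.838. Within each of the 8 libraries Psph was the highest of the 3 in WT and the lowest in TAZG197V. As 47.8% of the windows of Phgdh occur in other genes, some of its reads may be uncounted, and its place beside Psat1 is uncertain.

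With all libraries included, asparagine synthetase showed the largest rise of the 9 enzymes, and glutamine synthetase a small rise on a high level. Asns (ENSMUSG00000029752, chr6:7675169-7693254) was at 2.23, 2.64, 4.74 and 3.75 CPM in WT 1 to 4. In TAZG197V 1 to 4 Asns reached 244, 256, 246 and 208 CPM. The rise was 68.9-fold (log2 fold change 6.11, SE 0.173, edgeR adjusted p = 3.74e-07), and the mutant hearts spread by 8.77% of their mean (coefficient of variation) against 33.9% in WT. Without both libraries numbered 4 the log2 value was 6.34, below the 6.56 of Phgdh. Phgdh was also ahead when WT 2, WT 4 or TAZG197V 4 alone was left out, so the order of Asns and Phgdh is uncertain. None of the 50-base windows of Asns occurred in another gene. In level per length Asns moved from above 31.1% of all genes tested in WT to above 97.6% of them in TAZG197V.

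Glul (ENSMUSG00000026473, chr1:153899944-153909723), glutamine synthetase, was at 346, 334, 355 and 314 CPM in WT 1 to 4. In TAZG197V 1 to 4 Glul was at 453, 413, 470 and 575 CPM. The ranges did not overlap, and the rise was 1.42-fold (log2 fold change 0.50, SE 0.0925, edgeR adjusted p = 0.00366). Astrocytes are known to express Glul strongly. TAZG197V 4, with the highest astrocyte markers (146 CPM), was the highest library for Glul, whereas WT 4, with 88 CPM of these markers against 20 to 27.3 CPM in WT 1 to 3, was the lowest WT library for Glul. The part of these markers in the level of Glul was not tested. Without both libraries numbered 4 the log2 fold change was 0.37 (edgeR adjusted p = 0.00365). Of the windows of Glul 12.6% were found in other genes, among them Glns-ps1, which had 0 to 7 reads per library.

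The ratio of Asns to Glul counts within a library, which does not depend on scaling, lay between -7.26 and -6.22 on the log2 scale in WT and between -1.47 and -0.69 in TAZG197V. The difference of the means was 5.71 (exact permutation test over the 8 samples, two-sided, p = 0.0286, also 0.0286 after Benjamini-Hochberg adjustment over the 2 ratios tested, which is the smallest p that 4 against 4 can give). All 4 mutant hearts lay above all 4 WT hearts. As Glul changed little beside Asns, the ratio and its p restate the rise of Asns. Without both libraries numbered 4 the difference was 5.98. By sequencing lane, each with 2 libraries of each genotype, the difference was 6.33 in lane 7 and 5.10 in lane 8.

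Transcripts of proline synthesis from glutamate rose, that of the entry from ornithine fell slightly, and that of the enzyme that starts proline breakdown was lower by an amount close to the spread between mice. Aldh18a1 (ENSMUSG00000025007, chr19:40550257-40588463), which turns glutamate into the precursor pyrroline-5-carboxylate, was at 9.95, 9.56, 10.8 and 11.3 CPM in WT 1 to 4. Levels of Aldh18a1 in TAZG197V 1 to 4 were 141, 138, 145 and 118 CPM. The rise was 12.8-fold (log2 fold change 3.67, SE 0.0696, edgeR adjusted p = 7.68e-08). Its spread was 7.64% of the mean in WT and 8.94% in TAZG197V, and its adjusted p was the lowest of the 9. Pycr1 (ENSMUSG00000025140, chr11:120635712-120643769), the mitochondrial reductase that completes proline, was at 1.01, 1.37, 1.51 and 1.7 CPM in WT 1 to 4 and at 32.8, 38, 31.4 and 27.2 CPM in TAZG197V 1 to 4. The rise of Pycr1 was 22.6-fold (log2 fold change 4.50, SE 0.153, edgeR adjusted p = 6.64e-07). For both genes every mutant heart exceeded every WT heart many times over, and both showed the same direction in each lane. Without both libraries numbered 4 the log2 values were 3.81 for Aldh18a1 and 4.71 for Pycr1.

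Oat (ENSMUSG00000030934, chr7:132557478-132576398), ornithine aminotransferase, was at 240, 234, 239 and 220 CPM in WT 1 to 4. In TAZG197V 1 to 4 Oat was at 186, 188, 199 and 194 CPM. The genotypes did not overlap and the log2 fold change was -0.28 (SE 0.0575, edgeR adjusted p = 0.00607), which is a level 0.824 times that of WT, and -0.32 without both libraries numbered 4. Prodh (ENSMUSG00000003526, chr16:18060357-18090203), proline dehydrogenase, was at 26.2, 21.8, 29.2 and 24.6 CPM in WT 1 to 4 and at 22.7, 21.2, 21.3 and 21.8 CPM in TAZG197V 1 to 4. WT 2 fell inside the mutant range, so that the groups overlapped. The log2 fold change of Prodh was -0.25 (SE 0.0797, edgeR adjusted p = 0.0372). This call was lost in 13 of 20 other fits, among them those without surrogate variables (-0.23, edgeR adjusted p = 0.0802), with surrogate variables estimated on CPM (-0.22, 0.0887) and without WT 3, the highest library (-0.18, 0.115). Without both libraries numbered 4 the log2 fold change of Prodh was -0.22 (edgeR adjusted p = 0.0387). By lane, the log2 ratio of mean Prodh levels was -0.13 in lane 7 and -0.32 in lane 8.

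Pycr3 (ENSMUSG00000022571, chr15:75916477-75921560), a cytosolic reductase that also makes proline from pyrroline-5-carboxylate, was at 9.95, 11.2, 9.83 and 8.75 CPM in WT 1 to 4 and at 15.5, 18.9, 16.4 and 13.8 CPM in TAZG197V 1 to 4. The genotypes did not overlap, and the log2 fold change was 0.73 (SE 0.0867, edgeR adjusted p = 0.000443). Per kilobase of exon, the mean CPM of Pycr3 was 7.42 ± 0.761 for WT and 12.1 ± 1.61 for TAZG197V hearts, beside 0.355 ± 0.0741 and 8.22 ± 1.13 for Pycr1 (SD, n = 4). Within libraries, the log2 ratio of Pycr1 to Prodh counts lay between -4.67 and -3.84 in WT and between 0.32 and 0.84 in TAZG197V. The difference of the means was 4.75 (exact permutation test over the 8 samples, two-sided, p = 0.0286, 0.0286 after adjustment over the 2 ratios), and 4.94 without both libraries numbered 4. The mean count of Pycr1 was 0.055 times that of Prodh in WT and 1.48 times in TAZG197V (geometric means). As Prodh changed little, this ratio and its p restate the rise of Pycr1.

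Compared per length, the 9 enzymes covered a wide range of levels in WT hearts. Glul (101 ± 5.33 CPM per kilobase) and Oat (98.8 ± 3.9) led and overlapped each other, each above 98% of all genes tested. Prodh (3.26 ± 0.396) and Aldh18a1 (2.55 ± 0.194) followed without overlap. Psph (1.26), Asns (1.22) and Psat1 (0.843) formed a chain of overlapping neighbours, as did Pycr1 (0.355 ± 0.0741) and Phgdh (0.226 ± 0.138) at the bottom. In TAZG197V hearts Glul (144 ± 20.8) still led, but Asns (87.2 ± 7.68) now overlapped Oat (81.2 ± 2.5). Aldh18a1 (33.3), Psat1 (19.7), Phgdh (14.5) and Pycr1 (8.22) came next without overlap between neighbours. Psph (3.79 ± 0.838) and Prodh (2.79 ± 0.0879) overlapped at the bottom. Prodh thus went from place 3 of 9 to place 9 with a small change of its own level, and Phgdh went from above 8.05% of genes tested to above 84.8%. The places, overlaps and percentages of Phgdh are uncertain, because 47.8% of its windows occur in other genes while its level is divided by its whole exon length.

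**Figure D2:**
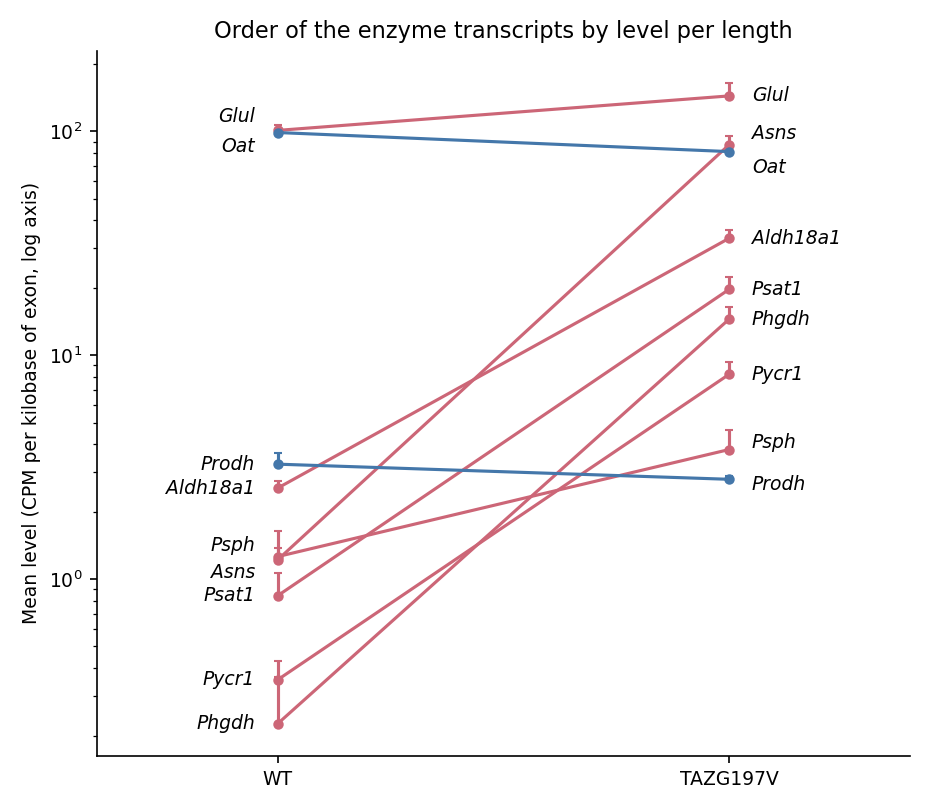
Mean level per length of the 9 transcripts in each genotype (CPM per kilobase of exon, log axis), joined by red lines where called higher and blue lines where called lower in TAZG197V. Bars extend upward by 1 SD over 4 libraries. Asns rose from 1.22 to 87.2, next to Oat at 81.2, while Prodh moved from 3.26 to 2.79.

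Among other genes of the same pathways, no called gene reached the change of Asns, Phgdh, Psat1, Pycr1 or Aldh18a1. Of 15 genes of serine and glycine use, 10 were tested, with 5 called higher, 1 lower and a median log2 fold change of 0.35. Shmt1 and Shmt2, which convert serine and glycine into each other while loading one-carbon units on folate, were at 8.57 ± 2.33 and 39.4 ± 2.42 CPM in WT. They reached 35 ± 5.66 and 103 ± 12.7 CPM in TAZG197V, log2 fold changes of 1.99 (SE 0.114) and 1.36 (SE 0.08). Srr, serine racemase, rose by a log2 fold change of 1.44 (SE 0.0698, from 19.2 ± 0.569 to 52.9 ± 5.48 CPM), but 30% of its exon bases overlap Smg6 and Tsr1 on the opposite strand. The gene called lower was Gcat (-0.56, SE 0.176), which acts in threonine breakdown to glycine and has 2 overlapping gene models under its symbol, and it is outside the rule for named genes and was named after its values were seen.

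Of 14 genes of glutamine, glutamate and aspartate metabolism 12 were tested, 4 being called higher and 3 lower with a median log2 fold change of 0.05. The 2 alanine aminotransferases moved in opposite directions. Gpt, the cytosolic form, was at 38.5 ± 6.16 CPM in WT and 17.7 ± 1.16 CPM in TAZG197V (log2 fold change -1.14, SE 0.114). Gpt2, the mitochondrial form, was at 46 ± 4.08 and 84.9 ± 4.42 CPM (log2 fold change 0.87, SE 0.0742). Got1, the cytosolic aspartate aminotransferase, rose by 0.79 (SE 0.0687, from 818 ± 89.9 to 1440 ± 34.7 CPM). Got2, the mitochondrial form, was called lower at -0.34 (SE 0.0693, from 284 ± 25.3 to 228 ± 10.9 CPM). It shares 25.6% of its windows with other genes and was named after its values were seen. For each of these genes the 4 mutant hearts were all on the same side of the 4 WT hearts.

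Around proline, hydroxyproline and ornithine, 9 of 14 genes were tested, with 5 called higher, 1 lower and a median of 0.27. Besides Pycr3, the largest rises were those of the polyamine enzymes Srm, spermidine synthase, and Odc1, which turns ornithine into putrescine. Srm went from 8.22 ± 1.24 to 16.6 ± 2.45 CPM (log2 fold change 1.05, SE 0.083) and Odc1 from 24.5 ± 1.98 to 45.4 ± 7.87 CPM (0.86, SE 0.116), with 24.3% of Odc1 windows found in other genes. The gene called lower was Aldh4a1, which follows Prodh in proline breakdown. It was at 86.1 ± 6.77 CPM in WT and 55.5 ± 1.51 CPM in TAZG197V (-0.65, SE 0.0621), shares 30% of its windows with the overlapping model Gm21969 and was likewise named after its values were seen.

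In glycolysis around 3-phosphoglycerate, the substrate of Phgdh, all 10 genes were tested, with 3 called higher, 2 lower and a median of 0.04. The largest fitted change, that of Bpgm (-2.65, SE 0.916), was not called, and Bpgm was named after its values were seen. It was at 1430 CPM in WT 4, the library with the highest red cell markers, and at 26.7 to 43 CPM in WT 1 to 3. The part of these markers in the level of Bpgm was not tested. Eno3, the muscle enolase, was at 1460 ± 199 CPM in WT and 704 ± 81 CPM in TAZG197V (log2 fold change -1.07, SE 0.0995). Eno1, the ubiquitous enolase, went from 37.3 ± 4.12 to 53.5 ± 3.01 CPM (0.53, SE 0.072) and Pgam1, a low-level form of the mutase that uses up 3-phosphoglycerate, from 2.39 ± 0.424 to 4.26 ± 0.176 CPM (0.79, SE 0.138). Pgam2, the muscle form of this mutase and far more abundant, was at 416 ± 68.3 CPM in WT and was lower in TAZG197V at 308 ± 20.4 CPM (-0.44, SE 0.106), and it was named after its values were seen. Pgam1 and Eno1 share 36.2% and 26% of their windows with other genes, which makes their levels uncertain. Adjusted p-values of the called genes in these 4 lists, from the same edgeR fit, were at most 0.0426. The lists had 60%, 58.3%, 66.7% and 50% of their tested genes called, against 33.5% over all genes. Without both libraries numbered 4 the numbers called in them were 7, 7, 5 and 7, against 6, 7, 6 and 5 with all libraries.

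**Figure D3:**
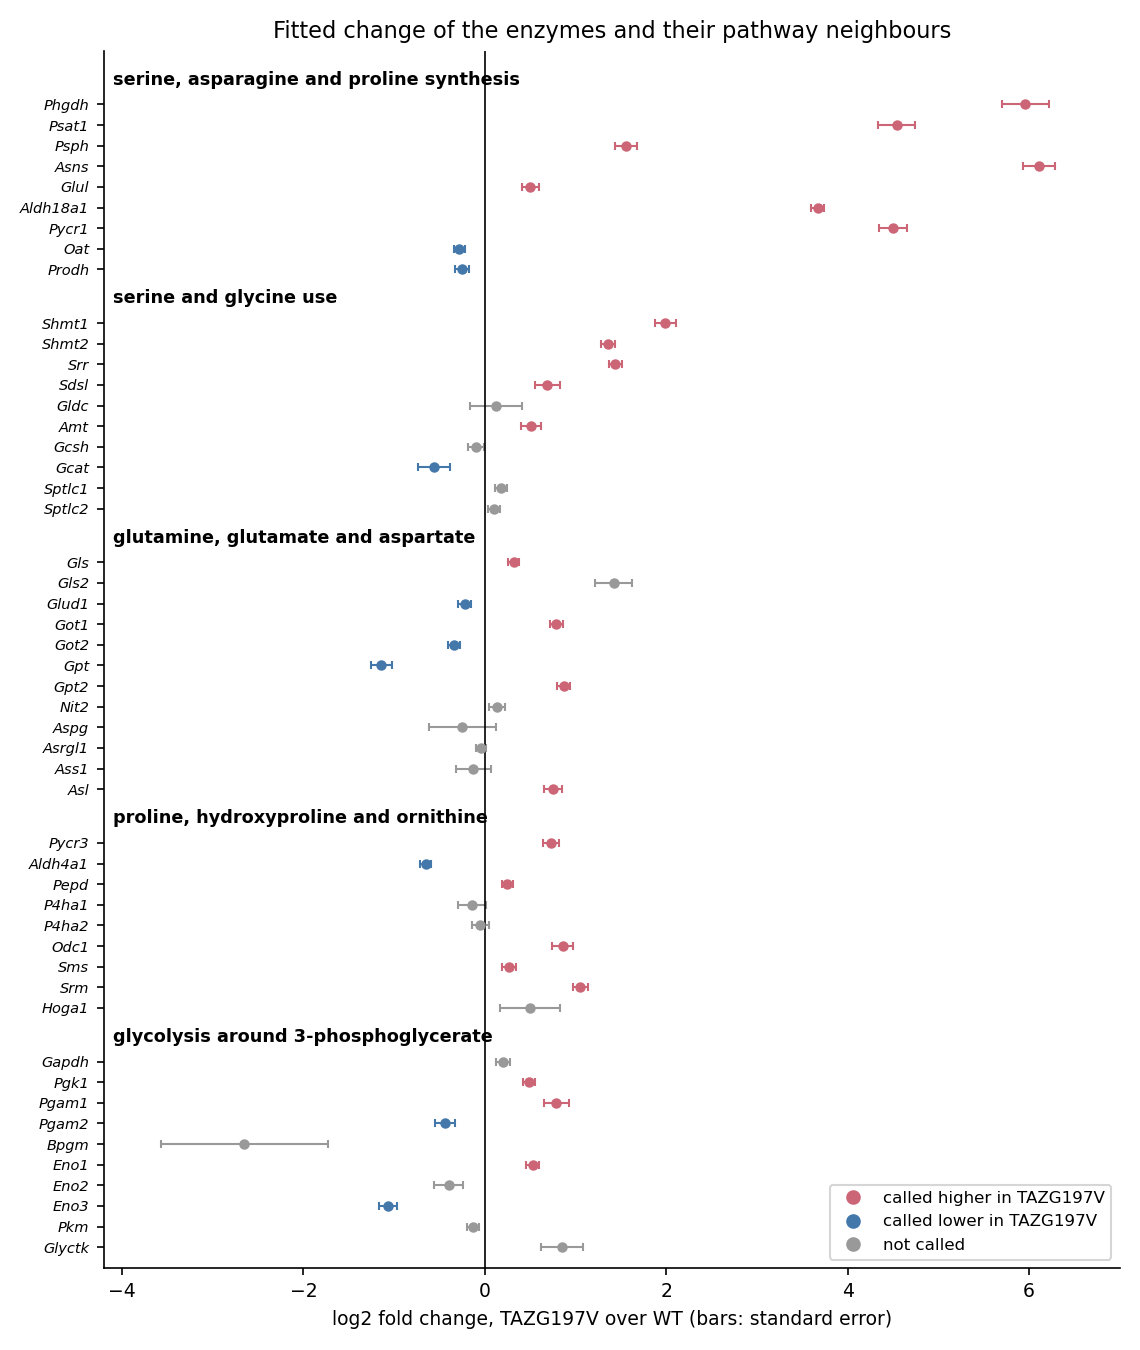
Fitted log2 fold change of TAZG197V over WT for the 9 enzymes and the tested genes of the 4 neighbouring lists. Points are estimates from 8 libraries, bars are standard errors, and colours mark called higher (red), called lower (blue) and not called (grey). Asns, Phgdh, Psat1, Pycr1 and Aldh18a1 lay at 3.67 or above, whereas the highest value among the called neighbours was 1.99 for Shmt1.

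The 9 enzymes were also compared with every other tested gene of sufficient level by the root mean square difference of log2 CPM over the 8 libraries, each gene centred on its own mean (12356 genes compared, the libraries and their scaling being shared by all). Psat1 and Pycr1 were each the gene nearest to the other, at 0.114, followed by Shisa3 for both (0.307 and 0.246). Nearest to Asns were Mthfd2 (0.221) and Tfcp2l1 (0.381), and to Phgdh Slc7a3 (0.365) and Slc7a11 (0.385). Aldh18a1 was nearest to Brca2 (0.166) and Atf5 (0.183), and Psph to Eda2r (0.111) and Spg20 (0.141). Genes with smaller changes had closer neighbours in this measure, namely Ubxn2b (0.0997) and Taf15 (0.108) for Glul, Pcyox1 (0.0346) and Ndufv1 (0.0377) for Oat, and Fndc5 (0.0215) and Asb11 (0.0343) for Prodh. No p-value is attached, because the measure mostly reflects the size of the genotype difference.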

How the data were processed

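According to the labels and the published methods, the authors made TruSeq libraries from heart RNA, sequenced 50-base single-end reads, demultiplexed them with bcl2fastq 2.20.0, aligned them to mm10 with STAR 2.7.3a (up to 2 mismatches) and counted reads over exons with featureCounts (Subread 2.0.0). The deposited values are raw counts per Ensembl gene, not normalised. Annotation release, strand setting and handling of multiply aligned reads are not given in the sources used here. The 92 ERCC spike-in rows held 0 counts in all 8 libraries and were left out.

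Symbols, positions and union exon lengths were taken from GENCODE M21. Testing used edgeR 4.0.16 in R 4.3.3 (filterByExpr on genotype, TMM scaling, quasi-likelihood F-test, two-sided, Benjamini-Hochberg adjustment over 15084 genes). The covariates were 2 surrogate variables from svaseq (sva 3.50.0, seed 1), estimated on TMM-scaled counts with genotype protected. This input was chosen, after others had been tried, because it gave the number of called genes of an earlier analysis of these data. The others are among the alternatives and were added after seeing the data. SE is the size of the log2 fold change divided by the square root of F. CPM uses TMM-scaled library sizes. Ratios were taken on counts plus 0.5. Alternatives were DESeq2 1.42.0, other covariates, scaling and filters, and omission of libraries. The procedure was also run on simulated counts with known changes. These held no lane effect and no outlying library, so that run did not test the use of surrogate variables.

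The members, lists, tests and naming rule were chosen with earlier results of these data known. Named are the edited gene, the 9 enzymes, Pycr3, up to 3 called genes per list with the largest change, and 2 genes nearest to each enzyme in pattern. Depths of 23055689 to 36301031 counts leave counting error small except for Phgdh, Pycr1, Asns and Psat1 in WT. Libraries of 1 genotype differed by at least 10.2 in chi-square per gene, so none repeated another. A further gene near this pathway, and the results that need it, are not reported here.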

Additional observations from a re-analysis of the deposited data

Results flagged for a closer look

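None of the 18 sets of 4 libraries made by the 9 enzymes in each genotype held a library far from the other 3. Over all 68 sets of 4 libraries examined, marker sums included, 7 contained an outlying library, meaning that the distance from it to the closest of the others, divided by the whole spread of the 4, passed Dixon's 95% critical value. Chance gives about 3.4 such sets. Among WT libraries, WT 4 stood apart in summed red cell (distance over spread 0.987), neuron (0.972) and astrocyte (0.893) markers and WT 2 in fibroblast (0.901) and liver (0.893) markers. The liver sum of WT 2 was nearly all Cyp2e1 (11.8 CPM). Adipocyte markers other than Fabp4 were also highest in WT 2, with Adipoq at 3.11, Plin1 at 3.93, Cidec at 3.57 and Cfd at 10.1 CPM. Fabp4 makes up most of the adipocyte sum and was lowest among WT in WT 2 (398 CPM), so that sum was not flagged. Among TAZG197V libraries, number 4 stood apart in neuron (0.981) and astrocyte (0.982) markers. The part of these markers in the enzyme levels was not tested.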

How the results depend on the processing

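In all 20 other fits, the 8 enzymes other than Prodh kept their direction and their call. Prodh kept its direction but was called in 7 and not in 13. Its log2 fold change was -0.26 with DESeq2 (adjusted p = 0.0537), -0.23 without surrogate variables (edgeR adjusted p = 0.0802), and -0.22 with 1 surrogate variable (0.0847), with lane in their place (0.0917), without the low-count filter (0.131) and with svaseq run on CPM, an input added after seeing the data (0.0887). Leaving out 1 library at a time gave -0.30 to -0.18 (adjusted p from 0.0223 without WT 2 to 0.115 without WT 3), and the cause was not tested. The log2 ratio of Asns to Glul moved to 6.33 within lane 7 and 5.10 within lane 8. Genes called numbered 1843 with a fold change of at least 1.5, as fewer can pass, and 3675 (without TAZG197V 2) to 5407 (svaseq on CPM) in the other fits, and the number of called genes in each of the 4 neighbouring lists was between 5 and 7. With the replicate number as a block in place of the surrogate variables, Prodh was at -0.22 (edgeR adjusted p = 0.0912), 8 of the 9 enzymes and 4272 genes were called. Same-numbered libraries correlated by 0.277, 0.0436, 0.28 and 0.416 in their deviations from the genotype means, and different numbers by -0.464 to 0.317, so the numbers were not taken to pair the mice. Depth limits the folds of Phgdh, Pycr1, Asns and Psat1, whose WT levels rested on few reads.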
